A study of Mus musculus with 2 samples.

Results

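Here 9 genes of the canonical Wnt pathway were followed through a mixed culture of mouse embryonic stem cells: the ligand Wnt8a, the transducer Ctnnb1, the DNA-binding factors Tcf7, Lef1 and Tcf7l1, the feedback inhibitors Axin2 and Nkd1, and the targets Sp5 and Cdx1. The members were chosen by gene symbol, and all 9 were found among the 32285 genes measured. The cells were C3H/HeSn-Paf/J lines, 3 each from XX, XO and XY embryos, mixed and profiled by droplet single-cell RNA sequencing. Time 1 was an early passage and time 2 followed 10 further passages, and the passaging was meant to let aneuploid cells build up. Both cultures received serum and LIF (a cytokine that holds stem cells undifferentiated) and lay on gelatin with irradiated feeder fibroblasts. Each time point had 1 library and no cell was assigned to a line, so no test between groups was possible. All intervals below are 95% intervals that cover counting error only.

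In canonical Wnt signalling a secreted ligand stops the destruction complex, in which Axin proteins hold beta-catenin for degradation, and beta-catenin then reaches TCF/LEF factors on DNA. In embryonic stem cells this input relieves repression by Tcf7l1 and helps to maintain self-renewal. In the epiblast and primitive streak the same pathway drives T, Sp5 and other mesendoderm genes.

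After filtering, 23953 cells of time 1 and 24673 cells of time 2 remained, with medians of 44514 and 49883 unique molecular identifiers (UMIs) per cell, and 159 cell barcodes occurred in both libraries. Levels are UMIs of a gene summed over a group of cells and scaled to 1000000 UMIs of that group (CPM). Cells were clustered without the members and without the other Wnt genes, and clusters are called by their leading gene. A set of 4 clusters was grouped as pluripotent stem cell-like: Gm9-led (8382 cells at time 1 and 680 at time 2), Pramel7-led (1221 and 2043), Nanos3-led (101 and 9216) and Mras-led (21 and 6654). All 12 pluripotency markers were detected in every one of these, but only Pramel7-led had one (Tbx3) among its 10 leading genes, and Gm9-led had the trophoblast marker Ascl2 there. Detection did not set them apart, since all 12 were also detected in the Fgf8-led, Lhx1-led, Slpi-led and Notch2-led clusters. The markers summed to 6997 CPM in Nanos3-led and 5800 in Mras-led cells, below the 7940 of the unnamed Notch2-led cluster. Values are therefore given cluster by cluster, with the 4 clusters together beside them. The Fgf8-led cluster was primed epiblast-like (6023 and 167 cells) and the Lhx1-led cluster mesendoderm-like (920 and 544). Summed naive markers stood at 790.1 and 1030 CPM in pluripotent stem cell-like cells, 265.9 and 225.7 in primed cells and 198.8 and 191.3 in mesendoderm-like cells. The 8 mesendoderm markers summed to 7.42 and 6.79 CPM in pluripotent stem cell-like cells, 50.1 and 62.9 in primed cells and 247.2 and 569.3 in mesendoderm-like cells. The mesendoderm-like cluster also carried the trophoblast and epithelial genes Hand1, Krt8 and Krt18 among its leading genes, with the 8 trophoblast markers summing to 125.5 and 249.9 CPM, against 150.6 and 69.3 in pluripotent stem cell-like cells and 32.2 and 44.8 in primed cells. Of these markers Krt7 was highest in mesendoderm-like cells, at 54.6 and 103.5 CPM, with Hand1 at 31.3 and 67.0, Elf5 at 0.93 and 1.37 and Tpbpa at 0 in both libraries. An unnamed Slpi-led cluster (74 and 4402 cells) held summed primed markers of 628.2 and 600.3 CPM together with T among its leading genes, and is given on its own.

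Wnt8a, a ligand of the epiblast and primitive streak on chromosome 18, had its highest values in primed cells. It stood at 11.2 CPM at time 1 (10.8 to 11.6) and 7.70 at time 2 (5.86 to 9.93). The Slpi-led cluster had 8.11 CPM in 74 cells of time 1 (5.58 to 11.4) and 6.21 at time 2 (5.90 to 6.53). Mesendoderm-like cells had 2.70 at time 1 (2.31 to 3.14) and 4.99 at time 2 (4.21 to 5.89). The primed interval overlapped that of the Slpi-led cluster in both libraries, and narrowly that of mesendoderm-like cells at time 2. The pluripotent clusters lay below the primed, Slpi-led and mesendoderm-like cells of their library, with 2.13 CPM in Gm9-led, 0.85 in Pramel7-led and 0.62 in Nanos3-led cells at time 1, and 0.22 to 1.24 over the 4 clusters at time 2. Wnt8a in these clusters, and in mesendoderm-like cells of time 1, lay below the level in free RNA, the pooled barcodes of under 2000 UMIs, which was 5.72 CPM at time 1 and 1.82 at time 2. How much of a cell's UMIs came from free RNA was not estimated, so a level below it does not show absence of expression. After thinning each cell to 10000 UMIs, 10.3% of primed cells of time 1 held a Wnt8a UMI (32.5% with all UMIs). Gm9-led cells had 1.88% (8.49%), which did not exceed the 3.71% (8.59%) of fibroblast-like cells. Fibroblast-like cells are not a clean negative, since they held 3263 and 2783 CPM of summed pluripotency markers at times 1 and 2. Median depths were 47089 UMIs in primed, 49774 in Gm9-led and 42229 in fibroblast-like cells.

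Ctnnb1 encodes beta-catenin, the transducer of the signal and a part of adherens junctions, and lies at chr9:120929216-120960507 on the plus strand (GRCm38). Its level varied little. Over the pluripotent clusters, the primed cells and the mesendoderm-like cells it ranged from 157.3 to 202.9 CPM at time 1 and from 134.4 to 181.0 at time 2, and fibroblast-like cells, with 195.3 and 176.2 CPM, fell inside or close to these ranges. Ctnnb1 in free RNA was 285.9 CPM at time 1, above that range, and 145.1 at time 2.

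Among the factors that beta-catenin binds, Tcf7 (chr11:52252371-52283014, minus strand) is known mainly as an activator. It was higher in primed cells, with 31.0 CPM at time 1 and 24.7 at time 2, and in mesendoderm-like cells, with 27.05 and 22.3, than in any pluripotent cluster, where it ranged from 13.7 to 20.03 CPM at time 1 and from 11.2 to 15.2 at time 2. In free RNA Tcf7 was 30.6 CPM at time 1 (29.6 to 31.6) and 13.5 at time 2, so the levels of time 1 did not stand above it. Lef1 (chr3:131110471-131224356, plus strand), a second activator, followed another order. Its highest levels were in the Slpi-led cluster, with 39.1 CPM in 74 cells of time 1 and 34.0 at time 2 (33.3 to 34.7), followed by the Mras-led cluster of time 2 with 32.4 (31.8 to 32.95). Primed cells had 21.7 and 26.1 CPM, the Gm9-led cluster 17.4 and 12.4, and mesendoderm-like cells 10.3 at time 1 (9.49 to 11.1) and 17.02 at time 2 (15.5 to 18.6). The mesendoderm-like value of time 1 was below that of all 3 pluripotent clusters measured in the same library. Lef1 in free RNA was 25.2 and 27.0 CPM, above the primed, mesendoderm-like and pluripotent values of time 1. Tcf7l1 (chr6:72626378-72789254, minus strand), the repressor of this family in embryonic stem cells, was 46.0 CPM in primed cells (45.2 to 46.7) and 49.3 in mesendoderm-like cells (47.6 to 51.1) at time 1, below the 52.8 to 59.96 of the 3 pluripotent clusters of that library. At time 2 primed cells had 59.0 and mesendoderm-like cells 52.0, inside the range of 42.7 to 65.7 over the 4 clusters. Fibroblast-like cells, with 26.1 and 26.3 CPM, stood lower than all of these. Tcf7l1 in free RNA was 59.4 CPM at time 1, above the primed, mesendoderm-like and Gm9-led values, and 43.1 at time 2.

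Axin2, a scaffold of the destruction complex and a widely used readout of the pathway, lies at chr11:108920349-108950783 on the plus strand. Of the pluripotent, primed and mesendoderm-like groups it was highest in mesendoderm-like cells, with 12.1 CPM at time 1 (11.2 to 13.0) and 8.93 at time 2 (7.87 to 10.1). Primed cells followed with 9.32 (8.99 to 9.67) and 6.27 (4.62 to 8.31), so that at time 2 the 2 intervals overlapped. The primed interval of time 2 also overlapped those of Nanos3-led (4.39 to 4.77) and Mras-led cells (4.75 to 5.19). The Slpi-led cluster had 9.34 CPM at time 1 (6.61 to 12.8) and 4.97 at time 2 (4.70 to 5.26). In the pluripotent clusters Axin2 was 3.68 CPM in Gm9-led, 2.74 in Pramel7-led and 6.70 in Nanos3-led cells at time 1, and 2.05, 2.10, 4.58 and 4.97 in the Gm9-led, Pramel7-led, Nanos3-led and Mras-led clusters at time 2. Fibroblast-like cells had 3.91 (3.22 to 4.69) and 3.54 CPM (3.01 to 4.13) and free RNA 6.56 and 4.62. The Gm9-led and Pramel7-led values lay below both in their library. Nanos3-led cells of time 1 (4.85 to 9.02), and Nanos3-led and Mras-led cells of time 2, stood above fibroblast-like cells without overlap of intervals. Their intervals overlapped those of free RNA. Nkd1 (chr8:88521354-88594884, plus strand), an inhibitor that binds Dishevelled, was 3.61 and 3.52 CPM in primed cells and 3.94 and 4.71 in mesendoderm-like cells, against 0.58 to 1.56 over the pluripotent clusters and 1.199 and 1.19 in fibroblast-like cells. Nkd1 in free RNA was 2.15 CPM at time 1, above all pluripotent clusters of that library, and 0.99 at time 2. Primed and mesendoderm-like cells had overlapping intervals for Nkd1 in both libraries.

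Sp5, a zinc finger factor and direct target of beta-catenin, lies at chr2:70474923-70477729 on the plus strand. Mesendoderm-like cells had 73.5 CPM at time 1 (71.3 to 75.6) and 55.8 at time 2 (53.1 to 58.6). Primed cells had 20.9 (20.4 to 21.4) and 19.97 (16.9 to 23.4), and the Slpi-led cluster had 11.9 at time 2 (11.4 to 12.3). In pluripotent clusters it was 1.31 CPM in Gm9-led and 1.195 in Pramel7-led cells at time 1, and 0.53, 1.10, 3.36 and 4.87 in Gm9-led, Pramel7-led, Nanos3-led and Mras-led cells at time 2. The order mesendoderm-like, primed, pluripotent held in both libraries with no overlap of intervals. After thinning, 36.2% of mesendoderm-like cells of time 1 held an Sp5 UMI (33.1 to 39.4) and 29.96% of those of time 2 (26.1 to 34.0), against 60.9% and 53.5% with all UMIs. Primed cells had 14.3% and 16.8% after thinning. Gm9-led cells of time 1 had 1.16%, under the 4.88% of fibroblast-like cells. Mras-led cells of time 2 had 4.12% (3.65 to 4.62) against 1.43% in fibroblast-like cells (0.65 to 2.69). The Mras-led level of 4.87 CPM nevertheless lies within the interval of Sp5 in free RNA of that library, 4.54 CPM (3.42 to 5.91). Fibroblast-like cells are not a clean negative here either, and whether the Gm9-led share is background was not tested.

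The upstream windows of Sp5 and Axin2 are printed because both genes are known direct targets that stood higher in mesendoderm-like than in pluripotent cells. Each holds the 250 bases before the gene's start (RefSeq, build GRCm38.p6, plus strand), chr2:70474673-70474922 for Sp5 and chr11:108920099-108920348 for Axin2. Capitals mark matches to the TCF/LEF words CTTTGAA or CTTTGAT or CTTTGTA or CTTTGTT on either strand.
Sp5: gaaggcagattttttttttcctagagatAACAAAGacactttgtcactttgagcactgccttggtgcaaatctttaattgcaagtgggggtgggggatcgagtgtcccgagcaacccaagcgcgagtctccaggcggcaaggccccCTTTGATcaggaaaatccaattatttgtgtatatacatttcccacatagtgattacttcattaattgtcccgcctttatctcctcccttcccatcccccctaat
Axin2: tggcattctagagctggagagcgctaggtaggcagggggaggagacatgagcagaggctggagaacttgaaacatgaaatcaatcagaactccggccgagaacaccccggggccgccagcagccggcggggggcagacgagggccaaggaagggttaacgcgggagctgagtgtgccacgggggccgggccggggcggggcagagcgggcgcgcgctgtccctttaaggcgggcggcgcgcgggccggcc
Sp5 held 2 matches, CTTTGTT on the opposite strand beginning 222 bases before the start and CTTTGAT on the same strand beginning 104 bases before it. The Axin2 window held none. Of 32851 windows of this length, 14.8% held at least 1 match and 1.43% held 2 or more. Windows were read for 7 members (12 windows in all), and besides Sp5 only 1 of the 4 Lef1 windows held a match.

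Cdx1, a homeobox factor of posterior tissue and a known Wnt target on chromosome 18, had a pattern of its own. It was 7.50 CPM in the Mras-led cluster at time 2 (7.24 to 7.78), 2.84 in the Nanos3-led cluster (2.70 to 2.99) and 2.25 in mesendoderm-like cells of time 2 (1.73 to 2.87). At time 1 all groups drawn in the plot of levels lay between 0.27 and 1.56 CPM. Primed cells, which were high for Sp5 and Wnt8a, had 0.59 CPM of Cdx1 at time 1 and 1.44 at time 2. After thinning, 7.02% of Mras-led cells held a Cdx1 UMI (6.42 to 7.66; 25.0% with all UMIs), against 0.79% of fibroblast-like cells of the same library. Cdx1 is one of the 10 leading genes of the Mras-led cluster, although it was not among the clustering genes.

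**Figure D1:**
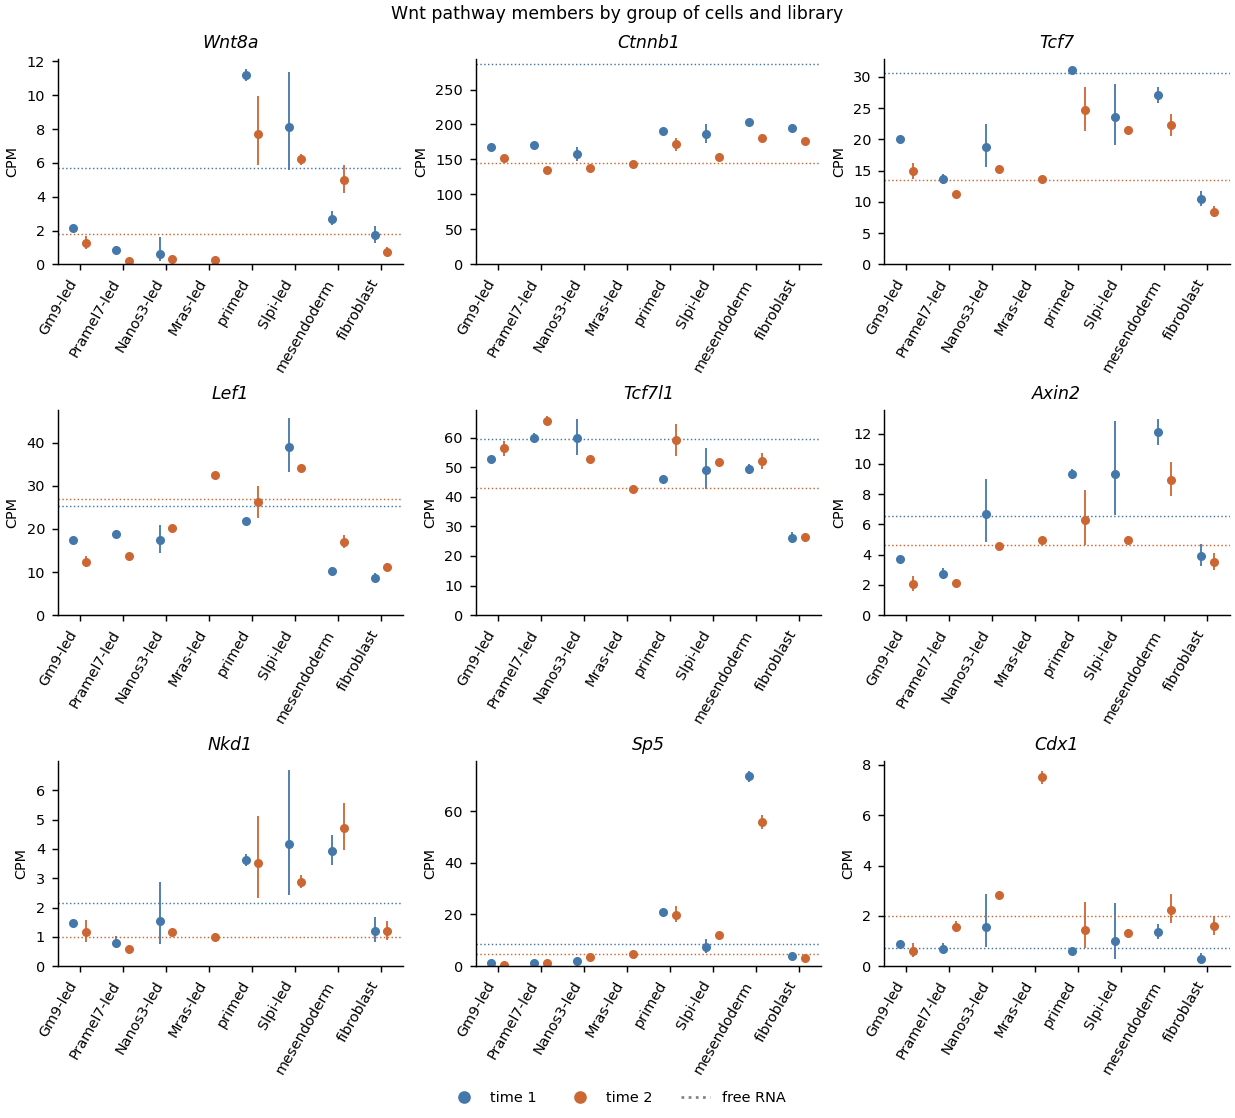
Level of each member in CPM (linear axis from 0) by group of cells, with time 1 in blue and time 2 in orange; bars are 95% Poisson intervals and dotted lines the level in free RNA. Sp5 stands at 73.5 and 55.8 CPM in mesendoderm-like cells, and Cdx1 is highest in the Mras-led cluster at 7.50 CPM. Wnt8a values are highest in primed cells, with intervals that overlap those of the Slpi-led cluster.

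Differences between states are log2 ratios of CPM plus 1, and a gene is counted where it is past 1.5-fold. In primed over pluripotent stem cell-like cells at time 1, 5 of 9 members were past 1.5-fold higher, namely Wnt8a (2.06), Tcf7 (0.67), Axin2 (1.17), Nkd1 (0.95) and Sp5 (3.24), and none was lower. Of all genes of at least 5 CPM in either group, 11.5% were higher and 10.7% lower by that rule, and 7 members reached 5 CPM, of which 4 were counted. Of those 4, Wnt8a, Axin2 and Sp5 reached 5 CPM only in primed cells, where they were higher, so the count is a description. At time 2, Wnt8a (2.72), Tcf7 (0.76), Nkd1 (1.15) and Sp5 (2.20) were past it and Cdx1 (-1.14) was lower, making 4 higher and 1 lower against 18.4% and 11.8% of all genes. Of the 7 members that reached 5 CPM there, 3 were higher and none lower. Wnt8a and Sp5 again reached it only in primed cells. Axin2 was at 0.44 in that library. The Slpi-led cluster over pluripotent cells of time 2 gave 3 members higher, Wnt8a (2.45), Nkd1 (0.93) and Sp5 (1.49), and 1 lower, Cdx1 (-1.22), against 10.6% and 9.47% of all genes, and of the 6 members that reached 5 CPM 2 were higher and none lower. Those 2, Wnt8a and Sp5, reached 5 CPM only in the Slpi-led cluster. Tcf7 lay just inside the 1.5-fold limit there, at 0.57.

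Mesendoderm-like over pluripotent stem cell-like cells of time 1 had 3 members past 1.5-fold higher, Axin2 (1.51), Nkd1 (1.05) and Sp5 (5.01), and 1 lower, Lef1 (-0.73), against 19.8% and 11.6% of all genes. With the minimum of 5 CPM, 6 members remained for comparison, 2 of them higher and 1 lower. The 2 higher, Axin2 and Sp5, reached 5 CPM only in mesendoderm-like cells. At time 2 there were 5 higher, Wnt8a (2.19), Tcf7 (0.62), Axin2 (0.89), Nkd1 (1.48) and Sp5 (3.63), and 1 lower, Cdx1 (-0.73), against 25.5% and 13.5%, or 3 higher and none lower of the 6 that reached 5 CPM. Axin2 and Sp5 reached 5 CPM only in mesendoderm-like cells at time 2 as well. The comparisons of the 2 time points use different cells throughout. Sp5, Nkd1 and Axin2 were past 1.5-fold higher in mesendoderm-like cells over each pluripotent cluster taken alone as reference. Over those clusters Sp5 ranged from 3.27 (Mras-led, time 2) to 5.22 (Gm9-led, time 2). The Lef1 and Cdx1 values moved with the reference: at time 2, Lef1 was -0.89 over Mras-led and 0.43 over Gm9-led cells, and Cdx1 was -1.39 over Mras-led and 1.03 over Gm9-led cells. In mesendoderm-like cells of time 1, Wnt8a went from 0.34 over the 4 clusters to 1.19 over Nanos3-led cells. Tcf7 went from 0.48 to 0.93 over Pramel7-led cells, so both were then past 1.5-fold. The Axin2 value for primed cells of time 2 likewise ran from 0.28 over Mras-led to 1.25 over Gm9-led cells, and at time 1 it was 0.42 over Nanos3-led cells, no longer past 1.5-fold. The time 1 value of Lef1 became 0.023 when cells of up to 20% mitochondrial UMIs were admitted and the cells were clustered again, a setting that left 206 mesendoderm-like cells in that library. In that setting the time 1 values of Sp5, Nkd1 and Axin2 became 6.72, 2.00 and 2.11.

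**Figure D2:**
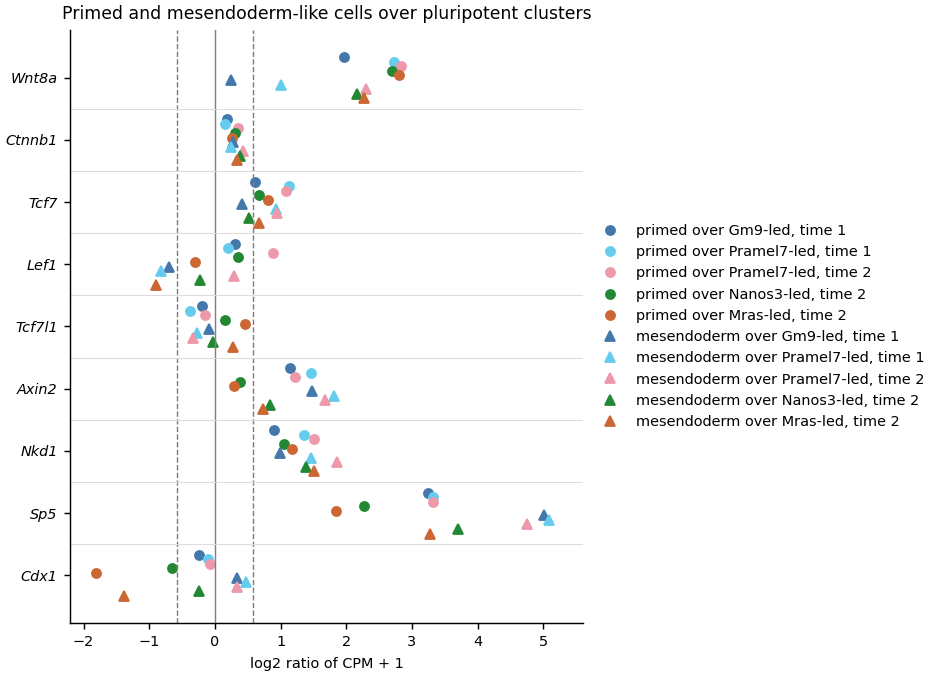
Log2 ratio of CPM plus 1 for each member in primed (circles) and mesendoderm-like (triangles) cells over single pluripotent clusters, with dashed lines at 1.5-fold in either direction. Sp5 and Nkd1 lie right of the line for every reference, while Cdx1 changes side between Mras-led (-1.39) and Pramel7-led (0.34) references of time 2.

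Cells were also split, within a state, by whether the thinned cell held a UMI of T, the primitive streak gene and a Wnt target in its own right. In mesendoderm-like cells of time 1, the 166 cells with a T UMI had 218.1 CPM of Sp5 (196.2 to 241.7) and the 754 without had 59.8 (54.4 to 65.6). At time 2, the 216 cells with T had 87.0 CPM (75.0 to 100.4) and the 328 without had 44.8 (37.9 to 52.7). Among primed cells of time 1, Sp5 was 60.7 CPM in the 476 cells with T (53.9 to 68.1) and 19.2 in the others (18.03 to 20.4), and Wnt8a was 26.1 (21.7 to 31.1) and 11.0 (10.1 to 11.9). The Slpi-led cluster of time 2 showed the same order, with Sp5 at 47.8 CPM in 467 cells with T (41.7 to 54.4) and 9.12 in the others (8.20 to 10.1), and Wnt8a at 16.5 (13.0 to 20.6) and 5.92 (5.18 to 6.73). Axin2 was 15.1 CPM against 8.56 in primed cells of time 1 with and without T, but its intervals overlapped in mesendoderm-like cells, widely at time 1 (9.26 to 21.5 and 8.30 to 13.1) and narrowly at time 2 (8.61 to 18.7 and 3.25 to 8.67). Lef1 was 21.7 CPM with T (15.2 to 30.02) and 8.62 without (6.65 to 10.99) in mesendoderm-like cells of time 1. In the Slpi-led cluster of time 2 Lef1 ran the other way, at 30.19 CPM with T and 36.98 without. Those intervals overlapped narrowly (25.4 to 35.6 with T and 35.1 to 38.9 without). Tcf7l1 was lower with T in primed cells of time 1, at 31.09 CPM (26.29 to 36.52) against 45.18 (43.43 to 46.98). It was also lower in the Slpi-led cluster of time 2, at 35.97 (30.74 to 41.84) against 49.83 (47.65 to 52.09). In mesendoderm-like cells Tcf7l1 was lower with T in both libraries, but with overlapping intervals. Cells of one library are not replicates, and these values describe that library.

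For passage, the 4 pluripotent clusters together gave 3 members past 1.5-fold at time 2 over time 1. Sp5 went from 1.31 to 3.58 CPM (log2 ratio 0.99) and Cdx1 from 0.87 to 4.39 (1.53), while Wnt8a went from 1.92 to 0.32 (-1.15). That is 2 higher and 1 lower, against 5.38% and 12.3% of all genes of at least 5 CPM. None of the 3 reached 5 CPM, and none of the 4 members that did, Ctnnb1 (-0.26), Tcf7 (-0.41), Lef1 (0.40) and Tcf7l1 (-0.09), was past 1.5-fold. Axin2 was at 0.22 and Nkd1 at -0.22. The median over all genes was -0.06, and TMM scaling moved it by 0.15, which turned Tcf7l1 to 0.06 and no other member. Tcf7 was past 1.5-fold lower with primed cells pooled in (-0.68) and within X-low cells, defined below (23.0 to 14.5 CPM).

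The higher Sp5 of the 4 clusters together did not hold inside the Gm9-led and Pramel7-led clusters. The higher Cdx1 did not hold inside the Gm9-led cluster, but was past 1.5-fold in 17 of 18 alternative settings and populations. Settings that change filters, doublets, scaling or pseudocount still pool the clusters, so this tally is a description and does not separate passage from cluster. Gm9-led cells made up most of the pluripotent cells of time 1 and few of those of time 2, and the reverse was true of Mras-led and Nanos3-led cells, so library and cluster largely coincide. Within Gm9-led cells, Sp5 was lower at time 2 (-0.60), as was Axin2 (-0.62), Cdx1 stood at -0.23, Lef1 at -0.46 and Wnt8a at -0.48. The Cdx1 intervals there overlapped, 0.79 to 0.96 CPM at time 1 and 0.35 to 0.92 from 19 UMIs at time 2. Within Pramel7-led cells Sp5 was at -0.062, Cdx1 at 0.60, Lef1 at -0.44 and Wnt8a at -0.60. The Nanos3-led cluster, with 12 Sp5 UMIs and 10 Cdx1 UMIs in its 101 cells of time 1, gave 0.60 and 0.59. Its intervals overlapped between libraries for both genes, with Cdx1 at 0.75 to 2.86 CPM at time 1 and 2.70 to 2.99 at time 2. Over all filtered cells Sp5 was lower at time 2 (-0.92), and primed cells were 25.15% of time 1 and 0.68% of time 2. The unnamed Notch2-led cluster, which is outside the 4 clusters, was 26.33% of time 1 and 0.04% of time 2. It had 12.4 CPM of Sp5 at time 1, above each pluripotent cluster. How the passage value of Sp5 depends on leaving this cluster out was not tested. Cells without a called chromosome gain gave 0.22 for Sp5, 0.71 for Cdx1 and -0.97 for Wnt8a. By the X classes defined below, Sp5 went from 1.07 to 1.09 CPM in X-high and from 1.62 to 4.29 in X-low cells. Cdx1 went from 0.33 to 1.47 and from 1.76 to 5.18 in the same order. X-low cells were 29.6% of pluripotent cells at time 1 and 71.6% at time 2. Wnt8a was below 0 in each of these populations, but its level in free RNA was also lower at time 2, 1.82 against 5.72 CPM, and the part of free RNA in the result was not tested. Sp5 in free RNA went from 8.67 to 4.54 CPM, opposite to the 4 clusters together but in the direction of the Gm9-led cells and of all filtered cells, and Cdx1 in free RNA went from 0.71 to 1.98. Their part in these values was not tested.

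**Figure D3:**
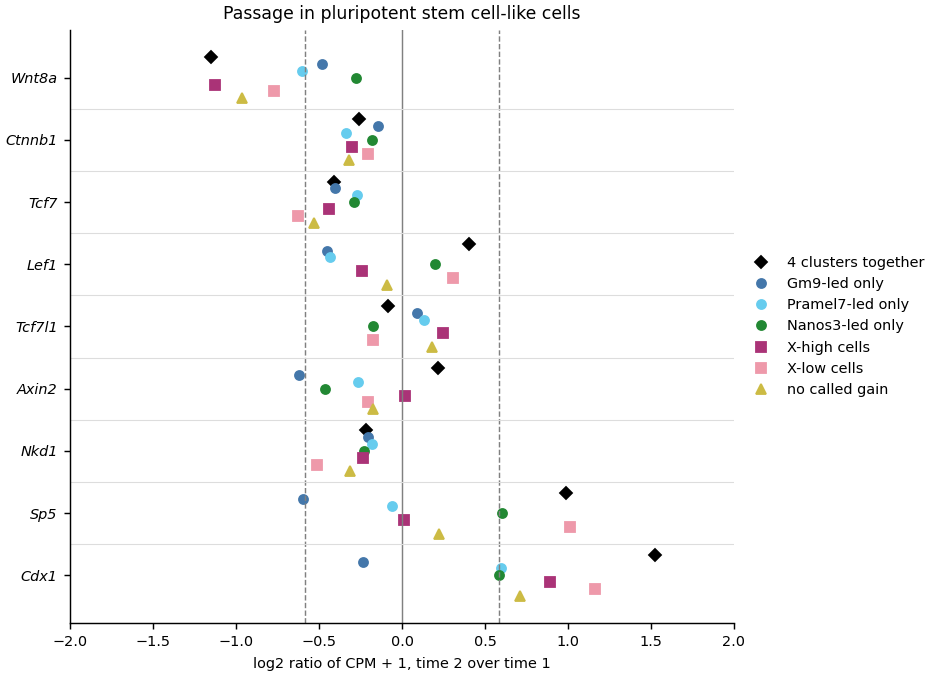
Log2 ratio of CPM plus 1 for each member, time 2 over time 1, for the 4 pluripotent clusters together (diamonds), single clusters (circles), X classes (squares) and cells without a called gain (triangles); dashed lines mark 1.5-fold. Sp5 is at 0.99 for the clusters together and at -0.60 inside the Gm9-led cluster.

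In mesendoderm-like cells, 2 members were past 1.5-fold higher at time 2, Wnt8a (0.69) and Lef1 (0.68), and none was lower, against 3.18% and 6.54% of all genes. Of the 6 members that reached 5 CPM only Lef1 was counted. Sp5 was at -0.39 and Axin2 at -0.40. The 8 mesendoderm markers summed to more at time 2 in this cluster, 569.3 against 247.2 CPM, with T at 136.8 against 40.7 CPM. Trophoblast markers also summed to more, 249.9 against 125.5 CPM, and pluripotency markers to less, 1400 against 2191. The part of these shifts in the member values was not tested.

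Pluripotent cells without a Y-linked UMI were divided by X dosage (X-linked over autosomal UMIs, set to 1 at the median of the library's Y-positive cells) into X-high (at least 1.2) and X-low. X-high cells numbered 5420 at time 1 and 2942 at time 2, with median dosages of 1.81 and 1.84, and X-low cells 2882 and 13310, with 0.98 in both. All members are autosomal. At time 1, Axin2 was 2.11 CPM in X-high and 5.80 in X-low cells (-1.13), and Cdx1 was 0.33 and 1.76 (-1.05). Lef1 (-0.43), Tcf7 (-0.48), Nkd1 (-0.49) and Sp5 (-0.34) were also below 0 without reaching 1.5-fold. Wnt8a ran the other way, at 2.19 CPM in X-high and 1.19 in X-low cells, both below its 5.72 CPM in free RNA. Its ratio of CPM plus 1 did not reach 1.5-fold. No member was past it higher and 2 lower, against 6.69% and 2.25% of all genes, and of the 5 members that reached 5 CPM only Axin2 was counted. Axin2 reached 5 CPM only in X-low cells, where it was higher. Y-positive cells of time 1 had 6.09 CPM of Axin2, 1.36 of Cdx1 and 22.2 of Lef1, near the X-low values. At time 2 they had 4.35 CPM of Axin2 and 26.9 of Lef1, but their Sp5 (2.69) and Cdx1 (3.95) lay between the X-high and X-low values.

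At time 2, 4 members were past 1.5-fold lower in X-high cells and none was higher, against 2.74% and 9.27% of all genes. Of the 5 members that reached 5 CPM, 2 were lower, Lef1 and Cdx1. Cdx1 reached it only in X-low cells. Lef1 was 12.7 CPM in X-high and 25.9 in X-low cells (-0.98), Axin2 2.14 and 4.89 (-0.91), Sp5 1.09 and 4.29 (-1.34), and Cdx1 1.47 and 5.18 (-1.33). Wnt8a was 0.46 CPM in X-high and 0.28 in X-low cells, both below its 1.82 CPM in free RNA, and did not reach 1.5-fold. X-high cells made up 51.4% of Gm9-led cells and 90.8% of Pramel7-led cells at time 1, and 6.40% of Nanos3-led and 0.80% of Mras-led cells at time 2, so X class and cluster are partly the same split. Inside the Gm9-led cluster, Axin2 was again lower in X-high cells, at 1.95 against 5.71 CPM at time 1 (-1.18) and 0.99 (0.61 to 1.54) against 3.78 (2.51 to 5.46) at time 2 (-1.26). Wnt8a ran the other way inside this cluster, as it did over the 4 clusters, and here was past 1.5-fold higher in X-high cells. It was 2.59 against 1.24 CPM at time 1 (0.68) and 1.69 (1.17 to 2.36) against 0.67 (0.22 to 1.57) at time 2 (0.68). All 4 of these Wnt8a values, and the 4 Axin2 values of this cluster, lie below the gene's level in free RNA of their library, as do the Axin2 values of both classes over the 4 clusters at time 1. Lef1 inside this cluster was at -0.50 at time 1 and -1.35 at time 2, with 7.31 CPM in X-high (6.18 to 8.59) and 20.2 in X-low cells (17.1 to 23.7). These 2 levels, and those of Lef1 over the 4 clusters at time 2, lie below its 27.0 CPM in free RNA. The Sp5 levels over the 4 clusters at time 2 also lie below its level in free RNA, 4.54 CPM. Within the Nanos3-led cluster of time 2, Lef1 (-1.06), Sp5 (-1.26) and Cdx1 (-0.77) were past 1.5-fold lower and Axin2 was at -0.49. The Mras-led cluster, with only 53 X-high cells, had none past it, and there Lef1 was at 0.42. Leaving out all cells with a called chromosome gain gave -1.37 for Axin2 at both time points and -0.90 for Lef1 at time 2.

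**Figure D4:**
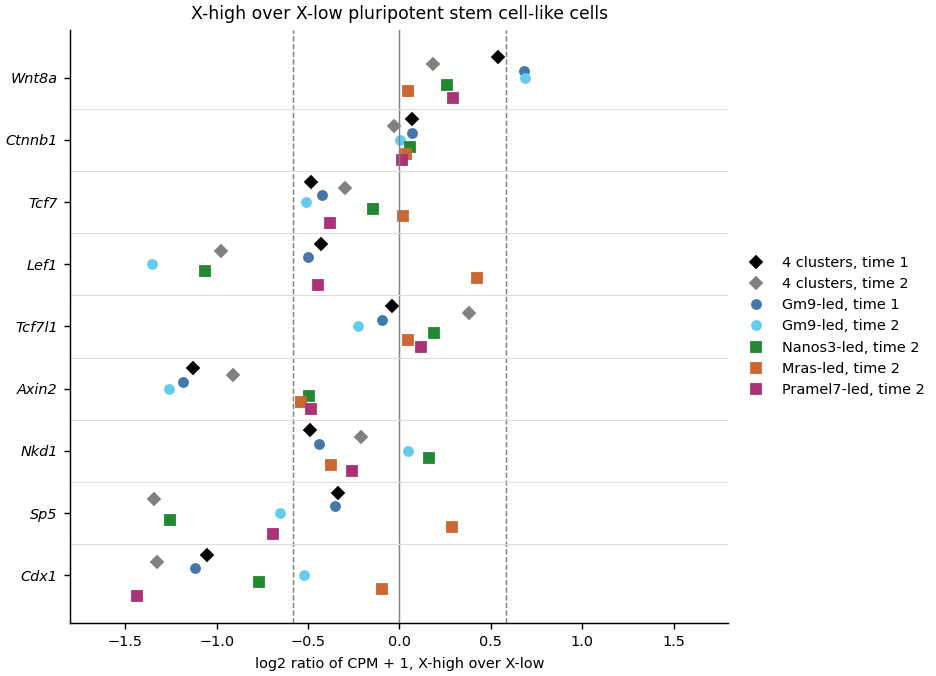
Log2 ratio of CPM plus 1 for each member, X-high over X-low cells, for the 4 pluripotent clusters together (diamonds) and inside single clusters (circles and squares); dashed lines mark 1.5-fold. Axin2 is below 0 in all 7 comparisons drawn, from -0.49 to -1.26, whereas Sp5 and Lef1 lie above 0 in Mras-led cells.

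Nkd1 lies on chromosome 8, which was called gained in 8.52% of pluripotent cells at time 1 and 50.01% at time 2. At time 1 it was 2.45 CPM in cells with the gain (2.01 to 2.95) and 1.28 in cells without (1.19 to 1.39), a log2 ratio of 0.59, and the median over 537 other chromosome 8 genes was 0.48. At time 2 it was 1.17 (1.07 to 1.26) and 0.93 (0.85 to 1.01), a ratio of 0.17 beside a median of 0.23 over 516 genes. Other autosomal genes had medians of -0.04 in both libraries. The gain was called from the chromosome 8 UMIs of the same cells, with Nkd1 left out, so the medians of the other chromosome 8 genes are partly set by the call and are a description. Over the 4 clusters together Nkd1 was 1.38 CPM at time 1 and 1.04 at time 2.

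The rest of the pathway was read from 86 other genes in 7 roles. By passage in the pluripotent clusters together, 45 reached 5 CPM, of which 4 were past 1.5-fold higher and 5 lower, and their median log2 ratio was -0.14. These counts lie near the background of 5.38% higher and 12.3% lower over all genes. Higher were the secreted inhibitors Sfrp1 (14.8 to 48.3 CPM, 1.64) and Notum (4.41 to 9.14, 0.91), the receptor Fzd5 (9.29 to 19.5, 0.99) and the cell cycle target Ccnd1 (101.6 to 180.2, 0.82). Lower were Rnf128 (27.5 to 5.38, -2.16), the co-receptor Lrp5 (7.99 to 2.49, -1.37), the ligand Wnt7b (10.0 to 4.63, -0.97), the inhibitor Sfrp2 (8.77 to 4.38, -0.86) and the kinase Csnk1e (64.8 to 42.5, -0.60). Inside the Gm9-led cluster none of the 4 higher genes was past 1.5-fold: Sfrp1 was at 0.46, Notum at 0.25 and Ccnd1 at 0.19, and Fzd5 had the opposite sign (-0.31). Of the lower genes, Rnf128 (-0.70) and Lrp5 (-0.78) were past it there, Sfrp2 (-0.55) and Csnk1e (-0.26) were not, and Wnt7b was higher (0.97). Over 18 alternative settings and populations, several of which still pool the clusters, Sfrp1 was past 1.5-fold in 17, Notum and Fzd5 in 15 and Ccnd1 in 14. Sfrp1 lies on chromosome 8, called gained in 8.52% of pluripotent cells at time 1 and 50.01% at time 2. The part of that gain was not tested. The X-linked genes Porcn, needed to acylate ligands, and Amer1, a scaffold of the destruction complex, were at -0.25 and -0.43 by passage, and at 0.79 and 0.62 in X-high over X-low cells of time 1. Rnf128 is X-linked too and was at 0.87 and 0.90 in X-high over X-low cells of the 2 libraries. X-high cells were 55.7% of pluripotent cells at time 1 and 15.8% at time 2. Within the classes, Rnf128 went from 33.2 to 9.13 CPM in X-high and from 17.8 to 4.41 in X-low cells, while Porcn went from 31.55 to 31.1 and from 17.8 to 20 in the same order. In both primed and mesendoderm-like cells Porcn was lower, at -1.50 and -1.63 over pluripotent cells of time 1. Its levels there, 8.64 and 7.81 CPM, were below those of both X classes of that library. The size of these ratios depends on the X classes in the reference. X classes were not called in primed or mesendoderm-like cells, so the part of X dosage was not tested.

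Many pathway genes stood higher in mesendoderm-like cells. Over pluripotent cells of time 1, 57 of the 86 genes reached 5 CPM, with 28 past 1.5-fold higher and 4 lower against 19.8% and 11.6% of all genes, and their median was 0.56, against 0.08 over all genes. By role, 3 of 4 ligands and 8 of 14 receptors and agonists were past it higher. Among them were the ligands Wnt3 (19.2 against 0.85 CPM) and Wnt4 (62.7 against 4.25), Wls, which carries ligands to the surface (31.2 against 1.82), the receptor Fzd2 (50.6 against 5.53), the agonist Rspo3 (15.2 against 0.58), the antagonists Dkk1 (11.2 against 0.20) and Cer1 (16.1 against 0.09), and the nuclear factor Tcf7l2 (62.0 against 12.4); these were chosen after their values were seen. Of the genes named, only Fzd2 and Tcf7l2 reached 5 CPM in pluripotent cells as well. Of all 86 genes, 45 reached 5 CPM in pluripotent cells of either library, among them 1 ligand and 8 receptors and agonists. Genes that reached it only in mesendoderm-like or primed cells could be counted higher but not lower. The counts in this paragraph are therefore a description. At time 2, 59 genes reached 5 CPM, with 36 higher and 7 lower against 25.5% and 13.5%. Primed cells of time 1 had 16 higher and 5 lower of 51, against 11.5% and 10.7% of all genes, with Wnt3 at 9.41 against 0.85 CPM, Wls at 16.0 against 1.82 and Fzd2 at 32.6 against 5.53. Of the 16 genes of the cytoplasmic relay and destruction complex 15 reached 5 CPM, of which 1 was past 1.5-fold higher in primed cells of time 1 and 4 in mesendoderm-like cells of that library, and none was lower. Against 11.5% and 19.8% of all genes these counts lie near background, whereas at time 2 7 of the 15 were higher in mesendoderm-like cells against 25.5%. These lists were chosen with earlier results known and give no separate evidence of direction.

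**Figure D5:**
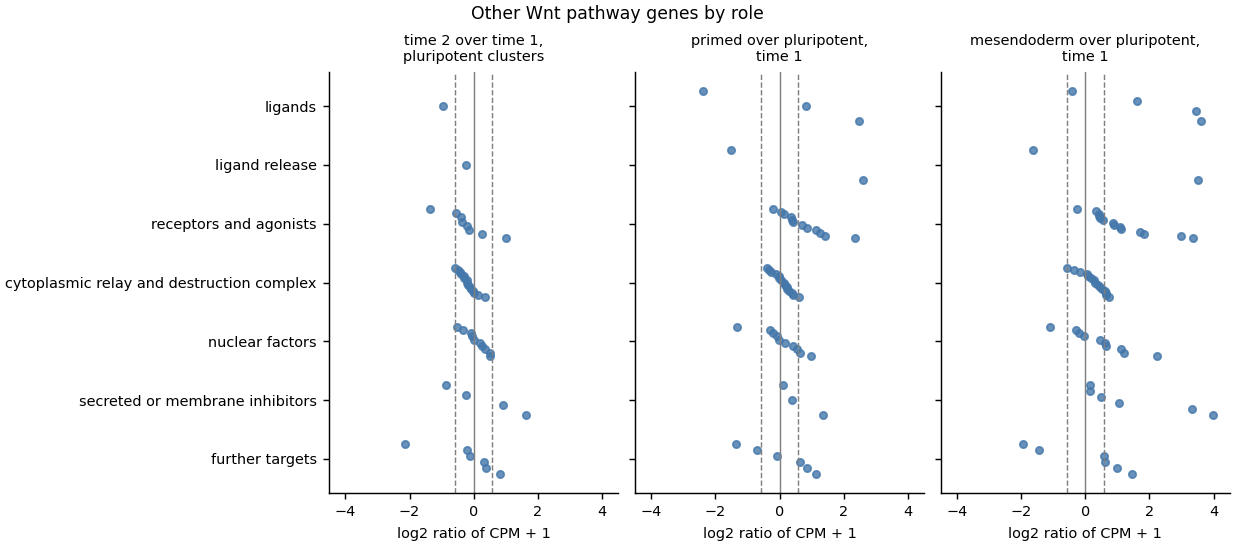
Log2 ratio of CPM plus 1 for the other Wnt pathway genes of at least 5 CPM in either group, by role, for passage (left), primed over pluripotent cells of time 1 (middle) and mesendoderm-like over pluripotent cells of time 1 (right); each point is 1 gene and dashed lines mark 1.5-fold. Ligands, ligand release, receptors and agonists, and inhibitors each have genes beyond 3 in mesendoderm-like cells, while 4 of the 15 relay genes lie past the line there.

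Across the 23 profiles formed by clusters of at least 50 cells in each library, the genes most like Sp5 among 12309 were Actc1 (Pearson r 0.914), Wnt5b (0.899) and Rrad (0.881), with T at 0.870. Axin2 was most like Tubgcp6 (0.839), Purg (0.831) and Mlxip (0.810), and its r with Sp5 was only 0.382. Lef1 was nearest to Guf1 (0.872), Sept3 (0.867) and Sinhcaf (0.866), and Cdx1 to Dapp1 (0.754), Fgf17 (0.753) and Zmat4 (0.741). Sp5 and Nkd1 had an r of 0.743. These are descriptions of points that share library, depth and clustering.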

How the data were processed

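Droplet libraries came from 10x Chromium version 3.1 kits, per the labels' protocols. The values the authors deposited are raw UMI counts, in whole numbers for each barcode and gene; Cell Ranger 6.1.2 and bcl2fastq 2.20.0.422, with builds mm10 and GRCm38, are listed per the submitters' processing notes. Positions came from GENCODE M21, which matched 32158 of 32285 gene identifiers. Whether counting used strand is not given in the sources used here, so reads of Ctnnb1, Tcf7, Lef1, Tcf7l1 and Axin2 could mix with opposite-strand genes that overlap them.

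A barcode was kept as a cell from 18315 UMIs (time 1) or 18645 (time 2), which is 0.1 of the 99th percentile among the 20000 largest barcodes, with 1000 genes or more and no more than 10% mitochondrial UMIs. Library totals over all barcodes were 1735810403 and 1843588321 UMIs. Scrublet's automatic threshold marked 0% of time 1, so a score of 0.15, chosen after that was seen, removed 1783 (6.93%) and 3576 (12.7%) doublets. Leiden clustering at resolution 0.5 took 15 neighbours in 30 components of 2000 variable genes on autosomes (scanpy 1.11.5, igraph 0.11.9), giving 14 clusters, named from marker lists. The members, the lists and the naming were chosen with earlier results of these data known. Named genes were the members, the 10 other Wnt genes with the largest passage ratios among those past 1.5-fold (9 were), Porcn and Amer1, and the 3 nearest genes of 4 members; 8 further Wnt genes named for primed and mesendoderm-like cells were chosen after their values were seen. Free RNA was first planned from barcodes of at most 500 UMIs; too few existed, and barcodes under 2000 UMIs were used (87011 and 12277). Chromosome gains were ratios of at least 1.3 to the time 1 median. Y-positive cells had at least 2 UMIs of Y-linked genes. Intervals are exact Poisson for CPM and Clopper-Pearson for shares. Ratios were tested on simulated data. Alternatives covered cell filters, doublets, clustering, scaling with edgeR 4.0.16, pseudocount, minimum level, population and reference cluster. Analyses ran in Python 3.11.15 and R 4.3.3.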

Additional observations from a re-analysis of the deposited data

Results flagged for a closer look

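Wnt8a moved in opposite directions by passage in different states. Its log2 ratio of CPM plus 1 at time 2 over time 1 was -1.15 in the 4 pluripotent stem cell-like clusters together (1.92 to 0.32 CPM) and 0.69 in mesendoderm-like cells (2.70 to 4.99 CPM), a gap of -1.84. Inside single pluripotent clusters the ratio was smaller, at -0.48 in Gm9-led, -0.60 in Pramel7-led and -0.28 in Nanos3-led cells. The difference was not tested, since each time point had 1 library. The pluripotent values, and the mesendoderm-like value of time 1, lie below the level of Wnt8a in free RNA (5.72 CPM at time 1 and 1.82 at time 2).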

How the results depend on the processing

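No paired analysis was possible because each time point had 1 library. Counts of members past 1.5-fold between states, with both directions summed, stayed within 1.5 times the reported count in the alternatives that gave a value. By direction, the 4 higher and 1 lower of primed cells at time 2 became 7 and 0 over Gm9-led cells, and the 3 higher of mesendoderm-like cells at time 1 became 5 over Pramel7-led cells. Under a doublet score of 0.2 no cluster took the mesendoderm-like name, so those counts have no value there. With pluripotent and primed cells pooled, 5 members and 16 other Wnt genes were past 1.5-fold by passage; inside the Gm9-led cluster 5 other Wnt genes were, and inside the Pramel7-led cluster 4. Sp5 by passage turned to -0.92 over all filtered cells, -1.01 with primed cells added, -0.60 in Gm9-led and -0.062 in Pramel7-led cells, and Cdx1 to -0.23 in Gm9-led cells. Fzd5 turned to -0.31 in Gm9-led and -0.052 in Nanos3-led cells, and Wnt7b to 0.97 in Gm9-led cells. At time 2, Cdx1 in primed cells turned to 0.62 over Gm9-led cells, and in mesendoderm-like cells to 1.03 over Gm9-led and 0.34 over Pramel7-led cells. Lef1 in mesendoderm-like cells of time 1 turned to 0.023 at a mitochondrial limit of 20%. The count of members by X class at time 2 was 2 in the Pramel7-led cluster and 0 in the Mras-led cluster. Single clusters, single-cluster references, the Slpi-led cluster counted as primed and the doublet score were added after seeing the data. The cause of these changes was not tested. The counts rest on 1 library per time point, low members sit near free RNA, and no share or level was checked in a second culture.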

Other observations

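In 2-cell-like cells, the minority that expresses Zscan4 and Tcstv genes, Axin2 was 14.0 CPM in 150 cells of time 1 and 12.0 in 60 cells of time 2. Lef1 was 9.76 and 13.5 CPM in them. A Kdr-led cluster, with the endothelial genes Cdh5 and Fli1 among its leading genes, had 12.7 and 6.32 CPM of Axin2 in 76 and 179 cells. The Notch2-led cluster of time 1 (6307 cells, median 28785 UMIs) had 12.4 CPM of Sp5 and 4.77 of Wnt8a, between the primed and Gm9-led values of that library, and was left unnamed.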
